A study of Mus musculus with 22 samples.

Results

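Sensory neurons of the dorsal root ganglion (DRG) keep, as adults, many of the transcription factors that set their identity during development. The levels of 10 such factors were followed here: Pou4f1, Isl1, Drgx, Prdm12, Runx1, Runx3, Etv1, Shox2, Maf and Mafa. The 10 symbols were listed by name and matched to the Ensembl genes of the deposited count tables, which hold 55487 genes. Each was found in every table, and all 10 passed the filter on low counts in every comparison. Drgx was matched through its older symbol Prrxl1.

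The series measured polyadenylated RNA in bulk from mice labelled WT or Postn knock out (KO), Postn being the gene of the matricellular protein periostin. DRGs from T10 to L5 were taken after 5 days of vehicle or IMQ (imiquimod, a TLR7 agonist that gives a psoriasis-like inflammation when applied to mouse skin). DRG neurons were separately cultured for 72 hours with or without recombinant POSTN protein (rPOSTN). The 8 groups were WT vehicle ganglia (n = 3), WT IMQ ganglia (n = 2), KO vehicle ganglia (n = 3), KO IMQ ganglia (n = 2), and WT control, WT rPOSTN, KO control and KO rPOSTN cultures (n = 3 each). The labels used here give neither strain, age nor sex, and do not say whether a library is 1 animal, a pool or a separate culture, so p-values measure the spread between these libraries, which may in part be technical.

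As background, Pou4f1 (also called Brn3a) and Isl1 are homeodomain proteins of nearly all somatosensory neurons and act together to close the early neurogenic programme and open subtype programmes. Drgx and Prdm12 are tied to the nociceptor lineage: Drgx is a paired-type homeodomain protein needed for the wiring of nociceptive neurons, and Prdm12 is a zinc-finger protein whose loss in people causes congenital insensitivity to pain. The runt-domain pair splits the lineages, Runx1 directing non-peptidergic nociceptors and itch neurons and Runx3 directing TrkC proprioceptors. Etv1 is an ETS factor of proprioceptors, Shox2 a homeodomain factor of TrkB touch neurons, and Maf and Mafa are basic leucine zipper factors of low-threshold mechanoreceptors.

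RefSeq promoter windows (250 bases before to 50 after a start, on GRCm38.p6, an earlier build than the GRCm39 named in the submitters' processing notes) were at hand for 8 of the 10 genes, 11 windows in all, with none for Maf and Mafa. A search on both strands asked which windows hold core letters read by runt, homeodomain, Maf and ETS factors, the classes most members belong to, and the E-box of bHLH factors, a class outside the set. The Runx core TGTGGT was in 16.8% of all 32851 windows, and among the members in 4 of 11: the first window of Runx1, the first of Runx3, the first of Etv1 and that of Drgx. In the first windows of Runx1 and Runx3 it occurred in tandem on the opposite strand. The spaced pattern ACCACANNACCACA, tallied after this pair was seen and overlapping the single core, was in 7 of the 32851 windows (0.0213%), among them those of Runx1 and Runx3. The pattern was written from this pair, so nothing is read from its rarity. Windows with 2 or more Runx cores in any arrangement numbered 595 (1.81%), and the first windows of Runx1 and Runx3 were among them. Both sites are shown because the runt pair holds them in common, with the Runx cores in capitals, 5′ to 3′ on the gene's strand (Runx1 at chr16:92826027-92826052, minus strand, cores from 29 and 37 bases after the start; Runx3 at chr4:135120505-135120530, plus strand, cores from 134 and 126 bases before the start).
Runx1: taaacaACCACAgaACCACAagttgg
Runx3: ccctcaACCACAgaACCACAaggcca

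The members otherwise differed in these windows. The homeodomain core TAATTA (5.29% of all windows) was in 0 of the 11, the Maf core TGCTGA (19.5%) in the first window of Runx3 and the second of Etv1, the ETS core CCGGAA (14.9%) in the second window of Runx1, and the E-box CANNTG (72.3%) in 6 of the 11. GC content ran from 44.0% to 78.3%, the highest being the window of Pou4f1, against a median of 52.7% over all windows. The 120 bases before the start are shown for Pou4f1 (chr14:104468000-104468119, minus strand), the factor with the highest CPM in every group, and for Prdm12 (chr2:31639917-31640036, plus strand) and the second start of Etv1 (chr12:38783591-38783710, plus strand), the pair with the largest differences between ganglia and cultures. The capitals mark the Maf core of Etv1. A match of letters is a description and not a bound site.
Pou4f1: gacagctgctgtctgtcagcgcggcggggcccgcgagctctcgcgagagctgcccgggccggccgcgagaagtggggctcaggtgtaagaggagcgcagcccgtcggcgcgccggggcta
Prdm12: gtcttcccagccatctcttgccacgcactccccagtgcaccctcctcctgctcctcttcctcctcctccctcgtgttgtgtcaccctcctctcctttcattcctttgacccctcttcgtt
Etv1: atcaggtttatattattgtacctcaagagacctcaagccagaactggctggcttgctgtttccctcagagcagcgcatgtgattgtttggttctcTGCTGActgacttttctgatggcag

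Total counts ranged from 16.7 to 24.1 M (mega) counts per library. Postn lay at 21.9 to 28.0 counts per M (CPM) in WT vehicle ganglia, at 46.2 to 52.5 CPM in WT IMQ ganglia and at 3.63 to 7.86 CPM in the 5 KO ganglia. In cultures Postn lay at 656 to 961 CPM in WT and at 67.1 to 426 CPM in KO, where replicate 3 was highest in both treatments (382 and 426 CPM). Among the ganglia, WT IMQ 2 alone had Y-linked transcripts with nearly no Xist. WT cultures 1 and 2 had the same pattern, WT culture 3 had Xist and no Y-linked counts, and the KO cultures had both. The vehicle ganglion libraries numbered 1 stood apart in both genotypes: long transcripts were lower there, with a slope on exon length of -0.133 (WT) and -0.167 (KO) log2 units per doubling against -0.0314 to 0.123 in the other 8 ganglion libraries. Markers of neurons were present throughout, with 20 pan-neuronal genes summing to 16770 to 19730 CPM in ganglia and 6991 to 9265 CPM in cultures. The cultures also held markers of Schwann cells (3151 to 4598 CPM over 13 genes), satellite glia (1834 to 2436 CPM over 10 genes) and fibroblasts (918.6 to 2149 CPM over 10 genes).

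All 10 factors were detected in all 22 libraries, at levels that spread widely. For a ranking, CPM was divided by the kilobases of all annotated exons of a gene, not by the length of the expressed transcript. The order depends on this choice: by CPM alone Etv1 had a higher mean than Prdm12 in WT vehicle ganglia (160 against 146). Per kilobase these ganglia were led by Prdm12 at 59.0 ± 11.8 CPM per kb (SD, n = 3) and Pou4f1 at 55.3 ± 2.60 CPM per kb, which did not differ beyond their spread. Drgx (34.8 ± 2.89 CPM per kb) and Isl1 (27.0 ± 1.01) came next, each below the one before by more than both SDs. Etv1 (12 ± 2.19) and Maf (11.4 ± 0.66) overlapped, and Runx1 (8.05 ± 0.62), Shox2 (5.46 ± 0.80), Mafa (3.24 ± 0.26) and Runx3 (0.83 ± 0.26) closed the order. The proprioceptor factor Runx3 was last in every group, and it rested on 33 to 130 counts per library.

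The order was the same in all 4 ganglion groups but for 2 neighbouring pairs. Pou4f1 (66.0 ± 4.21 CPM per kb) stood above Prdm12 (63.1 ± 3.26) in KO vehicle ganglia, and Shox2 (7.63 ± 0.10) above Runx1 (7.50 ± 1.60) in KO IMQ ganglia (n = 2), both within the spread. In WT control cultures the order was Pou4f1 (17 ± 0.52 CPM per kb), Drgx (10.8 ± 0.29), Prdm12 (10.6 ± 1.16), Maf (7.80 ± 0.42), Isl1 (6.72 ± 0.53), Runx1 (3.74 ± 0.20), Etv1 (2.79 ± 0.30), Shox2 (1.59 ± 0.07), Mafa (1.04 ± 0.10) and Runx3 (0.47 ± 0.15), where Drgx and Prdm12 did not differ beyond their spread. Compared with WT vehicle ganglia, Pou4f1, Drgx, Maf and Runx1 stood higher in the order and Prdm12, Isl1 and Etv1 lower. Between KO vehicle ganglia and KO control cultures only Maf, Runx1 and Etv1 changed place, with Etv1 falling below the others. In KO control cultures Isl1 (7.64 CPM per kb) stood above Maf (5.97).

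**Figure D1:**
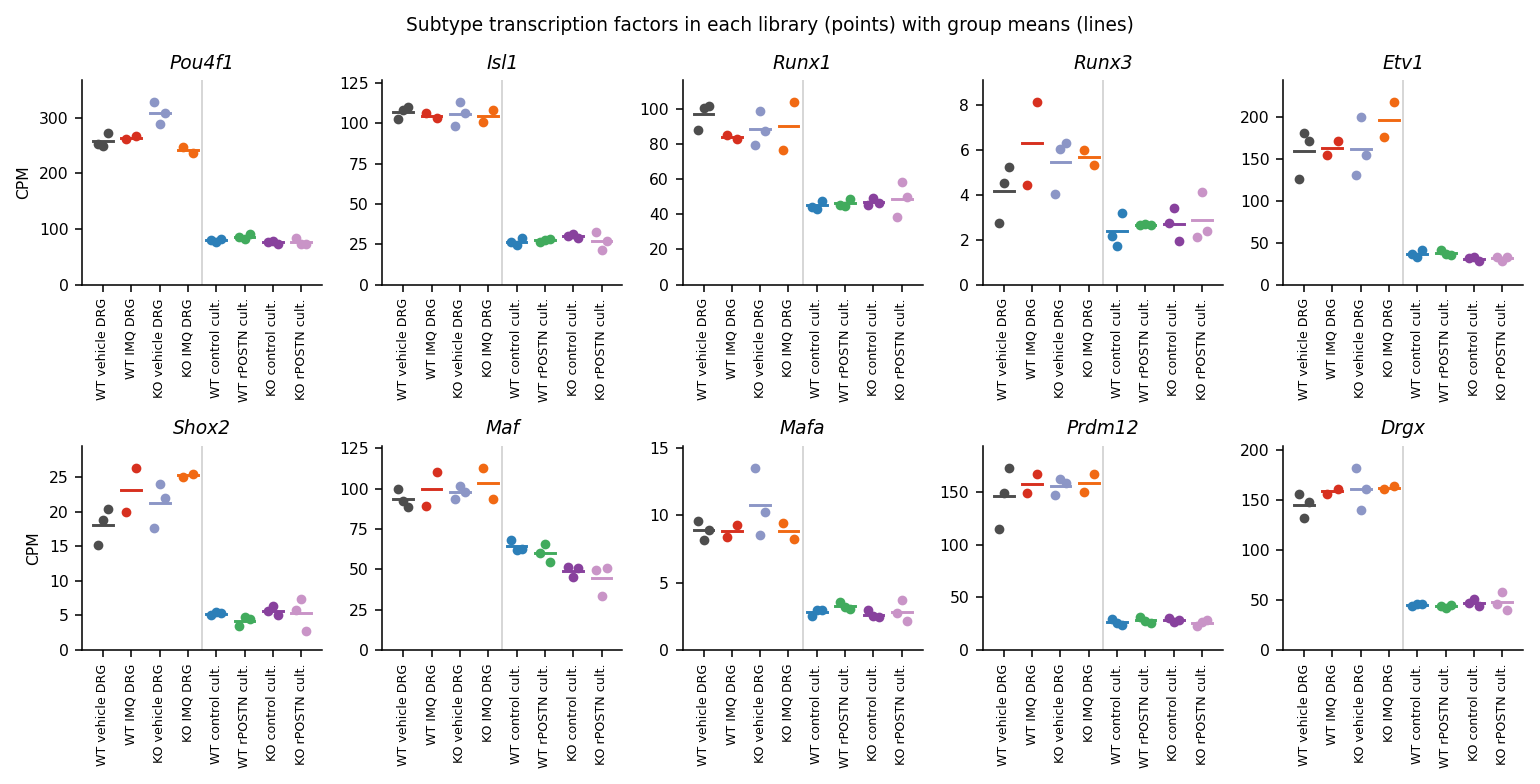
Level of each factor (CPM, y axis from 0, scaled per panel) in every library (points) with the group mean (line), for the 4 ganglion groups on the left and the 4 culture groups on the right of each panel. For 9 of the 10 factors every culture library lies below every ganglion library, and Runx3, at 1.74 to 8.13 CPM, is the exception. The share of all genes with this pattern over all cultures and ganglia was not counted, so nothing is read from that count.

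The first question was whether IMQ treatment of the mice changed these factors in the ganglion. By edgeR's quasi-likelihood test across 17197 genes with Benjamini-Hochberg adjustment, 0 of 10 passed an adjusted p (FDR) of 0.05 in WT ganglia, where 1.3% of all genes did, and 0 of 10 in KO ganglia, where 1.1% did. At an unadjusted p below 0.05 there were 0 members in WT (7.27% of all genes) and 1 in KO, Pou4f1 (8.39%). DESeq2 called 0 in WT and Pou4f1 in KO. The median log2 fold change of the members was 0.06 in WT and 0.01 in KO, against -0.01 over all genes in each.

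The pan-sensory factors were close between treatments in WT. Pou4f1 measured 253, 250 and 272 CPM in the vehicle libraries and 262 and 267 CPM under IMQ, a log2 difference of 0.03 ± 0.10 (SE). The IMQ values lay inside the vehicle range. Isl1 measured 103, 108 and 110 CPM against 107 and 103 CPM, with a log2 difference of -0.03 ± 0.09 and an approximate 95% interval of -0.22 to 0.15.

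In KO ganglia Pou4f1 measured 328, 289 and 308 CPM in the vehicle libraries and 248 and 237 CPM under IMQ. Both IMQ libraries lay below the 3 vehicle libraries, and the log2 difference was -0.36 ± 0.11 (edgeR adjusted p = 0.279, and 0.0447 by DESeq2). Over the 11 other settings tried, the adjusted p ran from 0.0447 to 1. The KO vehicle libraries also lay above the 3 WT vehicle libraries, at 0.26 ± 0.09 (edgeR adjusted p = 1). The difference between the IMQ effects of KO and WT was -0.39 ± 0.15 (edgeR adjusted p = 0.999). These 3 comparisons share the KO vehicle libraries, the highest of which was the library numbered 1 that stood apart by transcript length. Without it the IMQ difference in KO was -0.29 and the genotype difference 0.19.

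Among the nociceptor lineage factors, Prdm12 measured 115, 149 and 173 CPM in WT vehicle against 149 and 167 CPM in WT IMQ ganglia, and 147, 163 and 158 CPM in KO vehicle against 150 and 167 CPM in KO IMQ ganglia. The groups overlapped in both genotypes, with log2 differences of 0.11 ± 0.15 (WT) and 0.01 ± 0.15 (KO). Drgx measured 156, 132 and 148 CPM in WT vehicle and 156 and 161 CPM in WT IMQ ganglia, a difference of 0.12 ± 0.13. Runx1 measured 88.2, 100.3 and 102 CPM in WT vehicle and 85.4 and 83.1 CPM in WT IMQ ganglia, at -0.20 ± 0.14. In KO Runx1 measured 79.5, 99.0 and 87.7 against 76.5 and 103.8 CPM, at 0.01 ± 0.14. Runx1 and Drgx were the 2 members whose WT vehicle and IMQ libraries did not overlap (for Drgx the nearest values differed only beyond the printed digits), as was the case for 21.4% of all genes with 3 against 2 libraries, and in KO these were Pou4f1 and Shox2 (23.6% of all genes).

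Of the factors of touch and position sense, Runx3, Shox2, Mafa and Etv1 varied more between the 10 ganglion libraries. Their SD was 16.8 to 28.0% of the mean, against 4.28 to 10.9% for the pan-sensory and nociceptor lineage factors. Maf did not vary more (8.57%), and Runx3 and Mafa had low counts. Runx3 measured 2.72, 4.53 and 5.23 CPM in WT vehicle and 4.45 and 8.13 CPM in WT IMQ ganglia, a log2 difference of 0.58 ± 0.32 (edgeR adjusted p = 0.883). Shox2 measured 15.2, 18.8 and 20.3 against 19.9 and 26.4 CPM, at 0.35 ± 0.17 (edgeR adjusted p = 0.777). For both genes the highest of all ganglion libraries was WT IMQ 2, the library with Y-linked transcripts, and without it the differences were 0.10 and 0.15. Etv1 measured 127, 181 and 172 CPM in WT vehicle and 155 and 172 CPM in WT IMQ ganglia (0.03 ± 0.19), and 131, 201 and 155 against 176 and 218 CPM in KO (0.27 ± 0.19). In both genotypes vehicle library 1, in which long transcripts were low, had the lowest Etv1 (13.3 kb of exon) of the vehicle libraries. Without that library the Etv1 differences were -0.10 (WT) and 0.15 (KO). Runx1, Isl1, Shox2, Runx3 and Prdm12 (2.47 kb) were lowest there too in both genotypes. Drgx and Mafa were highest there, and Pou4f1 and Maf were not the same in both. The part of transcript length in these levels was not tested. The touch factors Maf (0.09 ± 0.13 in WT and 0.07 ± 0.13 in KO) and Mafa (-0.01 ± 0.20 and -0.30 ± 0.20) had overlapping libraries, and without KO vehicle 1 the Mafa difference in KO was -0.082.

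The same ganglia carried a rise of macrophage genes. Their 15 markers summed to 232.1 to 285.0 CPM in WT vehicle and 880.0 to 957.7 CPM in WT IMQ ganglia, and to 238.9 to 329.2 and 709.5 to 782.6 CPM in KO. In WT 12 of 15 were called higher, with the smallest p for Adgre1 (log2 3.34 ± 0.16), Ctss (2.73 ± 0.18), C1qc (2.13 ± 0.16) and Itgam (3.41 ± 0.26), and 11 of 15 in KO. Maf and Runx1 are also known from macrophages, and Maf measured 99.5, 92.3 and 88.8 CPM in WT vehicle and 89.1 and 110.4 CPM in WT IMQ ganglia. The part of macrophages in these levels was not tested. Of 33 other sensory lineage transcription factors, 25 nociceptor and itch effector genes, 20 mechanoreceptor and proprioceptor effector genes and 20 pan-neuronal genes tested, 0 were called in either genotype by edgeR. The Schwann cell markers summed to 12380 to 17330 CPM in WT vehicle and 7370 to 9771 CPM in WT IMQ ganglia, without overlap (list median -0.53), with 1 of 13 called, Drp2 (-1.51 ± 0.17). In KO they summed to 8903 to 9740 and 7784 to 8015 CPM (median -0.23) with 0 called. The lymphocyte and dendritic cell markers included 1 called gene in WT, Cd8a (2.71 ± 0.43).

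Genotype was compared next, to ask whether loss of Postn alters these factors. By edgeR 0 of 10 passed in vehicle ganglia (0.0116% of all genes did) and 0 of 10 in IMQ ganglia (0.00581%), and DESeq2 called 0 in each. At an unadjusted p below 0.05 there was 1 in vehicle ganglia, Pou4f1 (3.08% of all genes), and 0 in IMQ ganglia (1.85%). Of the 10 members 8 had a higher fitted level in KO vehicle ganglia, as did 54.4% of all genes, with a median of 0.13 against 0.02 over all genes. Other lists had 0 genes called in this comparison by edgeR, and their values are given beside it: the pan-neuronal median was 0.10, the Schwann cell sum was 8903 to 9740 CPM in KO against 12380 to 17330 CPM in WT (median -0.56), and the fibroblast sum 1290 to 1530 against 1629 to 1980 CPM (median -0.35). Their part in the levels of the factors was not tested. Pou4f1 was the 1 member whose KO and WT vehicle libraries did not overlap (6.91% of all genes). In IMQ ganglia these were Pou4f1 (-0.13 ± 0.11, KO over WT), Etv1 (0.27 ± 0.21) and Drgx (0.03 ± 0.15), where 33.2% of all genes showed this with 2 against 2 libraries. Mafa measured 9.59, 8.16 and 8.91 CPM in WT vehicle and 13.6, 8.56 and 10.3 CPM in KO vehicle ganglia, at 0.28 ± 0.18. Its high value came from KO vehicle 1, the library that also had the highest Drgx (182 CPM) and Pou4f1 (328 CPM) of all ganglia, and without it the Mafa difference was 0.067. The difference of IMQ effects between genotypes was called for 0 of 10, and for 0% of all genes, by edgeR (1 member at an unadjusted p below 0.05, Pou4f1, and 2.12% of all genes), and DESeq2 called 0 of 10.

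**Figure D2:**
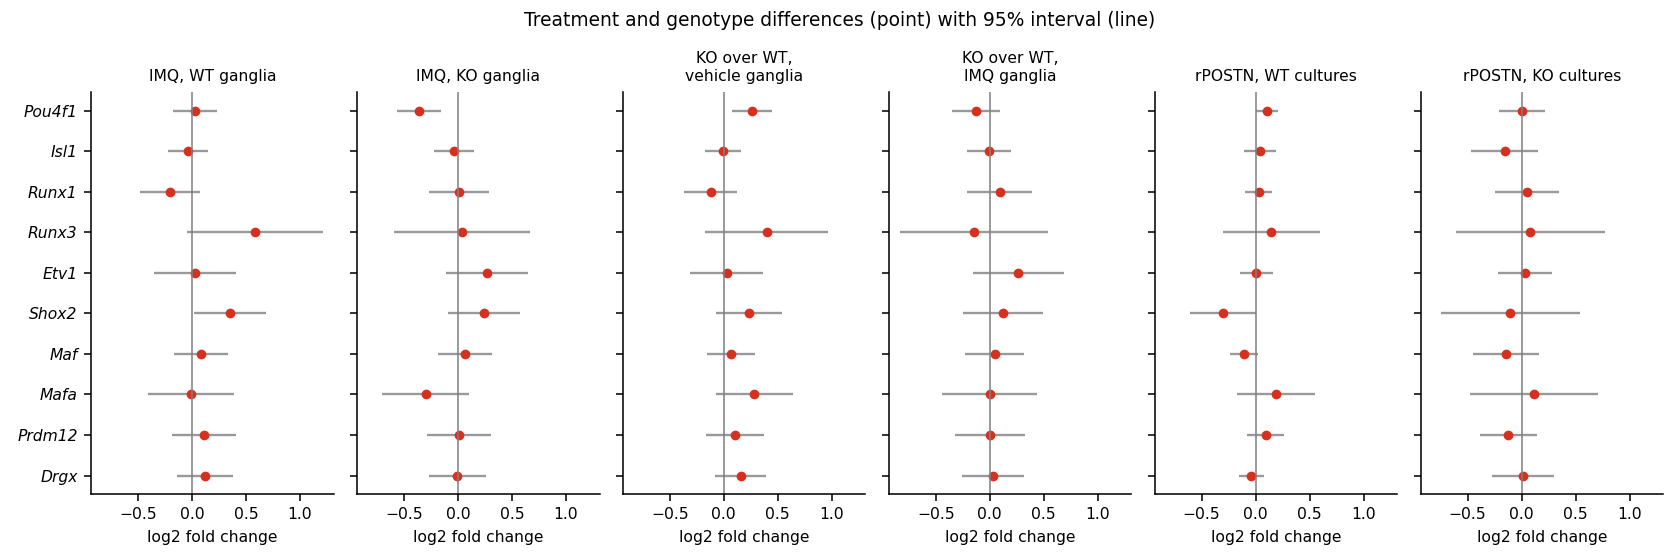
Log2 fold change (x axis, points) of the 10 factors with an approximate 95% interval (lines, from the SE and the normal quantile) for IMQ over vehicle in WT and KO ganglia, KO over WT in vehicle and in IMQ ganglia, and rPOSTN over control in WT and KO cultures. The lines are too short for 95% with so few libraries, and some miss 0 where the test's p was above 0.05. For Shox2 under IMQ in WT the line runs from 0.016 to 0.69 (edgeR unadjusted p = 0.0684). Point estimates run from -0.36 (Pou4f1, IMQ in KO) to 0.58 (Runx3, IMQ in WT), none passed FDR 0.05 by edgeR, and the widest intervals belong to Runx3.

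In cultures the question was whether added periostin protein acts on the neurons' transcription factors. With rPOSTN 0 of 10 passed in WT cultures and 0 of 10 in KO cultures by edgeR, as did 0% of all genes in each, and DESeq2 called 0 members in each. No member reached an unadjusted p below 0.05, while 3.97% of all genes did in WT and 0.925% in KO. With the replicate number as a block, 8 genes were called in WT cultures, and 0 of the 10 members. The estimates given here are from the fits without this block, although equal numbers counted as pairs in these cultures. The members' median difference was 0.03 in WT and 0.01 in KO.

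Pou4f1 gave the tightest estimate. It measured 79.8, 76.8 and 81.5 CPM in WT control and 84.9, 81.9 and 90.3 CPM in WT rPOSTN cultures, which did not overlap, at a log2 difference of 0.10 ± 0.05 (edgeR adjusted p = 0.999). Over the other settings tried, the replicate block among them, its adjusted p by edgeR or DESeq2 was 0.613 or more. In KO Pou4f1 measured 77.4, 78.1 and 72.7 against 84.1, 72.3 and 72.5 CPM, with overlap. Shox2 measured 5.01, 5.43 and 5.33 CPM in WT control and 3.5, 4.79 and 4.46 CPM in WT rPOSTN cultures, at -0.30 ± 0.16, without overlap. Mafa was the third member without overlap in WT (9.78% of all genes), at 0.19 ± 0.18, and 0 members were without overlap in KO (5.35%). The approximate 95% intervals of the 10 members lay between -0.61 and 0.60 in WT and between -0.75 and 0.77 in KO cultures, the outer bounds being those of Shox2 and Runx3. The difference of rPOSTN effects between KO and WT was called for 0 of 10 by edgeR (0% of all genes; 0 members at an unadjusted p below 0.05, and 1.95% of all genes) and for 0 by DESeq2.

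KO rPOSTN culture 2 stood apart in several members. It had the lowest Maf (33.7 CPM against 49.6 and 50.6 in its group), the highest Runx1 (58.4 against 38.4 and 49.7), the highest Drgx (57.4 against 45.9 and 40.0) and the highest Runx3 (4.11 against 2.1 and 2.38). Without it, as without each other library of that comparison, 0 of 10 members were called. KO rPOSTN culture 1 differed as well, with a slope on exon length of -0.0968 against -0.0241 to 0.0351 in the other cultures. Among all cultures it had the lowest Runx1 (38.4 CPM) and Prdm12 (23.0 CPM) and the highest Isl1 (32.9 CPM). Maf lay at 54.3 to 68.3 CPM in the 6 WT cultures and at 33.7 to 51.5 CPM in the 6 KO cultures, the 1 member without overlap there, as were 8.12% of all genes. The WT and KO cultures lie in separate deposited tables and were not tested against each other, so genotype and table cannot be told apart there. Their Xist and Y-linked patterns, given above, differed as well, and the part of sex was not tested.

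The large differences of the set lay between control cultures and vehicle ganglia. All 10 factors were lower in culture, in WT and in KO, by edgeR's test over 19546 genes at FDR 0.05, whereas 33.6% of all genes were called lower in WT and 33.3% in KO. The members' median log2 fold change was -1.69 in WT and -1.86 in KO, against 0.01 and 0.05 over all genes. The ganglion is a whole tissue and the culture a dissociated preparation counted in another table, so tissue state, preparation and table cannot be told apart. In bulk RNA, fewer cells of a type and less RNA per cell cannot be told apart either. Sex-linked transcripts differed along the same contrast. Summed Y-linked genes lay at 0 CPM in all vehicle ganglia and at 169 and 178 CPM in WT control cultures 1 and 2. They lay at 0 CPM in WT control culture 3 and at 44.1 to 94.5 CPM in the KO control cultures. The part of sex in these differences was not tested.

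Prdm12 had the largest difference in both genotypes. It measured 115, 149 and 173 CPM in WT vehicle ganglia and 29.5, 25.2 and 24.0 CPM in WT control cultures, 5.56-fold lower (log2 -2.48 ± 0.13, edgeR adjusted p = 1.52e-12). In KO it measured 147, 163 and 158 against 30.1, 26.5 and 28.3 CPM, 5.51-fold lower. Every culture library lay far below every ganglion library. Drgx, the other factor tied to the nociceptor lineage, was 3.22-fold lower in WT (-1.69 ± 0.12, with 43.7 to 46.0 CPM in culture) and 3.41-fold lower in KO.

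Etv1, an ETS factor of proprioceptors, was next. It measured 127, 181 and 172 CPM in WT vehicle ganglia and 37.0, 33.3 and 41.2 CPM in WT control cultures (-2.1 ± 0.15, edgeR adjusted p = 1.46e-10), and 131, 201 and 155 against 31.7, 32.5 and 27.8 CPM in KO (-2.40 ± 0.16). Isl1 was 4.02-fold lower in WT (-2.01 ± 0.12) and 3.5-fold lower in KO. Pou4f1 was 3.25-fold lower in WT (-1.70 ± 0.09), at 76.8 to 81.5 CPM in culture, and 4.05-fold lower in KO (-2.02 ± 0.09). The touch factors Shox2 (-1.78 ± 0.23 in WT and -1.91 ± 0.23 in KO) and Mafa (-1.64 ± 0.20 and -2.03 ± 0.20) lay in the same range.

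The 3 smallest differences were those of Maf and the runt pair. Maf measured 99.5, 92.3 and 88.8 CPM in WT vehicle ganglia and 68.3, 62.3 and 62.3 CPM in WT control cultures, 1.45-fold lower (-0.54 ± 0.13, edgeR adjusted p = 0.000981), and was 1.99-fold lower in KO (-0.99 ± 0.13). Runx1 measured 88.2, 100.3 and 102 against 44.0, 43.2 and 47.8 CPM in WT, 2.15-fold lower (-1.10 ± 0.13), and was 1.88-fold lower in KO. Runx3 measured 2.72, 4.53 and 5.23 against 2.16, 1.74 and 3.21 CPM in WT, where the ganglion and culture libraries overlapped. Its difference of -0.80 ± 0.31 (edgeR adjusted p = 0.0295) passed the threshold with all libraries, but not without WT vehicle ganglion 2 (0.0755) or 3 (0.137) or without WT control culture 1 (0.0832) or 2 (0.124), and it was -1.02 ± 0.31 in KO. Libraries of 9 members in WT (36.6% of all genes were lower without overlap) and of 10 in KO (33.5%) did not overlap.

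Because the pan-neuronal sum was itself lower in culture, the members were also set against it. Libraries were scaled to the summed counts of the 20 pan-neuronal genes. The share of all genes called lower with this scaling was not counted, so nothing is read from the number of members called. Of the 10, 7 were still called lower in both genotypes by edgeR over all genes: Prdm12 (-1.34 ± 0.17 in WT, -1.16 ± 0.17 in KO), Etv1 (-0.97 ± 0.18 and -1.11 ± 0.18), Isl1, Shox2, Pou4f1, Drgx and Mafa. Maf lay on the other side, at 0.60 ± 0.16 in WT (adjusted p = 0.00127) and 0.31 ± 0.16 in KO (adjusted p = 0.0655). Runx1 was at 0.04 ± 0.17 in WT (adjusted p = 0.853) and 0.39 ± 0.17 in KO (adjusted p = 0.0432), and Runx3 at 0.32 ± 0.32 and 0.27 ± 0.32 (adjusted p = 0.36 and 0.433). Against the mean log2 CPM of the same 20 genes, which weighs each gene equally, Runx1 was at -0.10 in WT and 0.22 in KO. Runx3 was there at 0.20 and 0.10, and Maf at 0.47 and 0.14. The lower level of these 3 genes in culture therefore holds with TMM scaling and not relative to the pan-neuronal sum. For Runx1 in WT the sign depends on which of the pan-neuronal measures is used.

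**Figure D3:**
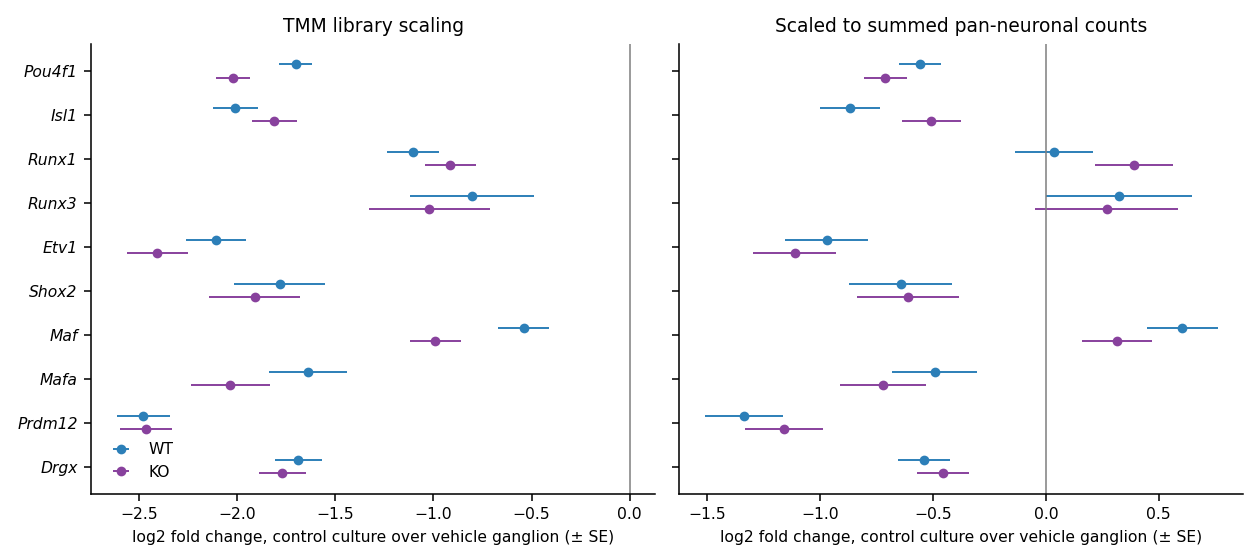
Log2 fold change (x axis, point) with SE (line) of control cultures over vehicle ganglia for each factor in WT (blue) and KO (purple), with TMM library scaling (left) and with libraries scaled to the summed counts of 20 pan-neuronal genes (right; x axes differ). All points lie below 0 on the left; on the right Maf, Runx1 and Runx3 lie at or above 0 and the other 7 factors below it.

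Ratios between members inside a library, which library scaling does not touch, differed between ganglia and cultures for some members. Prdm12 stood at a median of 58.3% of the Pou4f1 level in the 10 ganglion libraries (44.8 to 70.4%) and 35.2% in the 12 cultures (27.3 to 39.5%). Maf stood at 36.1% (28.5 to 45.6%) in ganglia and 69.8% (46.6 to 85.6%) in cultures, and Runx1 at 33.4% (24.2 to 43.7%) and 57.5% (45.7 to 80.8%). These 3 of the 9 ratios did not overlap between ganglia and cultures, and neither did the ratio to Pou4f1 of 72.6% of all other genes, so nothing is read from that count. Runx3 (1.08 to 3.05% and 2.27 to 5.68%), Etv1 (39.96 to 91.9% and 38.3 to 50.5%) and Isl1 (29.95 to 45.6% and 29.9 to 40.3%) overlapped. The medians were close for Drgx (57.5% in ganglia and 55.8% in cultures), Mafa (3.40% and 3.52%) and Shox2 (7.56% and 6.68%).

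Markers of other cells moved between ganglia and cultures too. The summed macrophage markers were 195.1 to 224.8 CPM in WT control cultures against 232.1 to 285.0 CPM in WT vehicle ganglia, with 12 of 15 called lower and 1 higher. In KO they were 142.1 to 189.0 against 238.9 to 329.2 CPM, with 13 lower and 1 higher. Schwann cell markers summed to 3615 to 4422 CPM in WT control cultures against 12380 to 17330 CPM, and to 3367 to 4492 against 8903 to 9740 CPM in KO. Of these 13 genes 10 were called lower in each genotype, and 2 in WT and 3 in KO higher. Satellite glia markers summed to 2158 to 2436 against 4063 to 4871 CPM in WT and to 1834 to 2128 against 3782 to 4786 CPM in KO. The sum does not describe this list, since 5 of its 10 genes were called higher and 5 lower in each genotype. The list medians were 0.22 in WT and -0.16 in KO. Fibroblast markers summed to 1316 to 1494 CPM in WT control cultures against 1629 to 1980 CPM, and in KO, with overlap, to 980.1 to 1872 against 1290 to 1530 CPM. Of these 10 genes 4 were called lower in each genotype, and 2 in WT and 3 in KO higher. Proliferation markers summed to 174.6 to 200.4 CPM in WT control cultures against 23.45 to 30.34 CPM in ganglia, with all 10 called higher in both genotypes. The part of these cells in the levels of the 10 factors was not tested.

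Other genes of the lineages were read beside the members, from lists written for this purpose. Of 33 other sensory lineage transcription factors tested, 25 were called lower in WT cultures and 23 in KO, 6 and 5 higher, with medians of -1.01 and -0.99. Pou4f2, a paralogue of Pou4f1 (-3.48 ± 0.26 in WT), Prdm8, a relative of Prdm12 (-3.20 ± 0.19), and Ldb2, a LIM-domain binding protein (-3.14 ± 0.20), were lower. Sox11, a factor induced by axon injury, was higher, from 14.4 to 111 CPM in WT (2.95 ± 0.11, and 3.11 ± 0.11 in KO). The other 5 higher in WT, named after their values were seen, were Zeb2 (1.55), Hmx1 (1.51), Creb5 (1.48), Lmo4 (1.15) and Tlx2 (0.47), the last not called in KO. Cbfb, the shared partner of Runx1 and Runx3, was looked up for that role and was at -0.11 ± 0.11 in WT and -0.08 ± 0.11 in KO, not called.

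Effector genes of the subtypes were lower as well. Of 25 nociceptor and itch effectors 19 were called lower in WT and 20 in KO (medians -2.79 and -2.72, the same with genes at 0 counts in culture placed at their bound). The smallest p belonged to Gfra2 (-3.48 ± 0.12 in WT), a GDNF-family receptor of non-peptidergic neurons, the irritant receptor Trpa1 (-3.0 ± 0.12), Tac1, the substance P precursor (-3.36 ± 0.16), and the sodium channel Scn11a (-4.65 ± 0.22). Mrgpra3, a receptor of itch neurons named after its values were seen, had 0 counts in the 3 KO control cultures together and 21.0 CPM in KO vehicle ganglia, at least 396-fold lower, the floor being 3 counts in the group as a whole. Adcyap1 (1.07 in WT) and P2rx3 (0.76) were called higher in both genotypes and are named after their values were seen.

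Of 20 mechanoreceptor and proprioceptor effectors 16 were lower in WT and 17 in KO (medians -1.59 and -1.99). Cntnap2 (-2.31 ± 0.13 in WT), Nefh (-1.94 ± 0.12) and Calb1 (-1.90 ± 0.12) were among those with the smallest p, and Spp1 (1.70), named after its values were seen, was higher in both genotypes. The pan-neuronal list had 17 of 20 lower in each genotype, with medians of -0.89 and -0.80 and the smallest p for Nefl (-2.46 ± 0.11 in WT), Snap25 (-1.65 ± 0.10), Syp (-1.93 ± 0.13) and Syt1 (-1.99 ± 0.14). The list medians of the effectors and of the 10 factors thus lay further from 0 than that of the pan-neuronal genes, as a description of these lists.

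**Figure D4:**
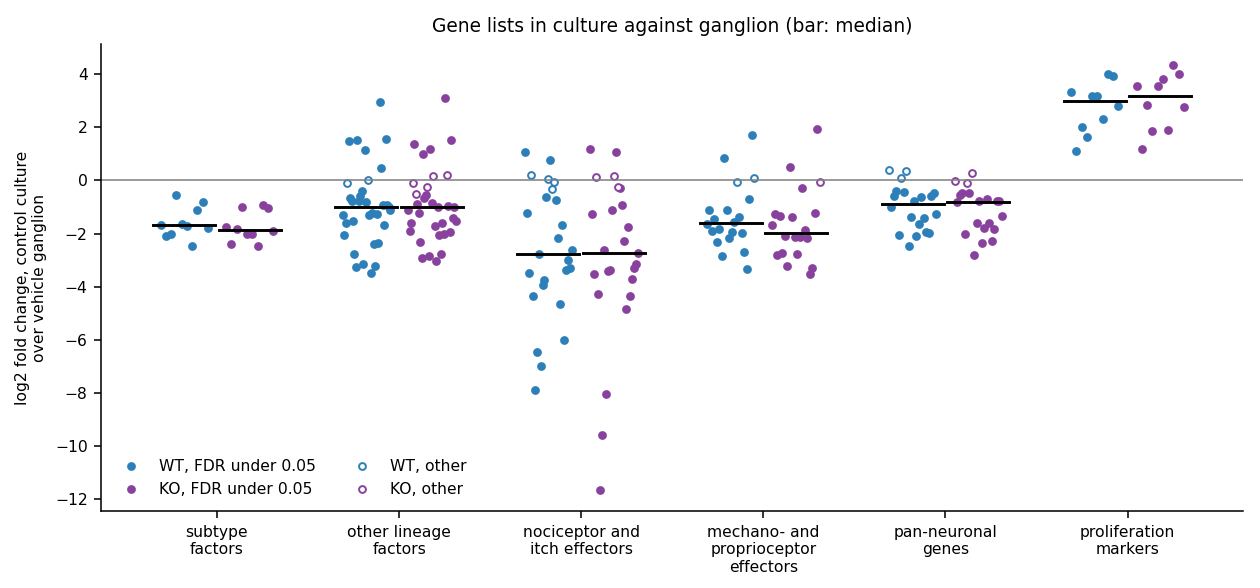
Log2 fold change of control cultures over vehicle ganglia (y axis) for the genes of 6 lists (points; WT blue, KO purple; filled where FDR was under 0.05) with each list's median (bar). The 10 subtype factors have medians of -1.69 and -1.86, between the pan-neuronal genes (-0.89 and -0.80) and the nociceptor and itch effectors (-2.79 and -2.72), while all 10 proliferation markers lie above 0; the lowest effector points are genes with 0 counts in KO control cultures, whose fitted values are no bound.

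Across the 22 libraries every pair of members correlated positively (Pearson r of log2(CPM + 1) from 0.664 to 0.987, median 0.943), a description in which the difference between ganglia and cultures is shared by all points. After the group means were subtracted, 25 of the 45 pairs were positive and 20 negative (median 0.051). Mafa with Drgx (0.838) and Runx3 with Shox2 (0.619) were the most positive of these and Runx1 with Maf (-0.649) the most negative. Over the 10 ganglion libraries, which differ in the length slope given above, r ran from -0.757 (Isl1 with Drgx) to 0.909 (Runx3 with Shox2).

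The genes most like each member over all 22 libraries are given with the same measure and the same limit. Prdm12 was closest to Gfra2 (r = 0.996), Pou4f1 to Rtn4rl1 (0.995), Isl1 to Tmem50b (0.997) and Drgx to Eepd1 (0.996). Etv1 was closest to Sacm1l (0.997), Shox2 to Nrg1 (0.987), Mafa to Ppp3ca (0.987), Runx1 to Ppip5k1 (0.988) and Maf to Lrrc4 (0.98). Runx3, the member with the fewest counts, had the lowest best match, Gga3 (0.937). With group means subtracted other genes came first, among them Prr13 for Pou4f1 (0.903), Cul7 for Prdm12 (0.868) and Nup214 for Runx1 (0.96).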

How the data were processed

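RNA of 22 libraries was sequenced by the submitters, from a poly-A selected, dUTP strand-specific preparation per the labels' protocols. The authors deposited raw counts per Ensembl gene in 3 tables (10 ganglion, 6 WT culture and 6 KO culture libraries), with no normalization. GRCm39, TopHat2, Bowtie2 2.2.3 and HISAT2 2.1.0 are listed without roles in the submitters' processing notes. What counted the reads, with which strand setting and annotation, is not given in the sources used here. Symbols came from GENCODE M21, which rests on GRCm38, for 55141 of 55487 genes.

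CPM used TMM library sizes over all 22 libraries. Genes were tested with the robust quasi-likelihood test of edgeR 4.0.16 (R 4.3.3) after filterByExpr and TMM, two-sided, with Benjamini-Hochberg adjustment over all genes and a threshold of FDR 0.05. The SE is the log2 fold change divided by the root of F, and 95% intervals span the normal quantile either side. These intervals are approximate and narrower than the test's own degrees of freedom would give. The 4 ganglion groups shared 1 fit, the WT and the KO cultures were fitted apart, 1 fit over the 12 cultures gave the difference of rPOSTN effects, and control cultures and vehicle ganglia were fitted together. The fits were run on simulated data with planted changes larger than the treatment and genotype differences reported here. That run does not cover differences of this size. The alternatives were DESeq2 1.42.0, RLE size factors, no low-count filter, a replicate block, a pan-neuronal offset, the compared groups alone and each library left out. No pair of replicates agreed within sampling noise (chi-square per degree of freedom of 2.49 to 69.9).

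The members and lists were chosen with earlier results of these data known. The 10 members were named throughout, from each list with a called gene up to 4 genes with the smallest p, and for each member up to 3 genes most like it by Pearson r of log2(CPM + 1) among genes with a mean of at least 1 CPM. Equal replicate numbers counted as pairs where, with 3 pairs, every pair's residuals correlated above 0.1: KO with WT vehicle ganglia (0.889, 0.842 and 0.168), WT cultures (0.286, 0.295 and 0.548) and KO cultures (0.379, 0.691 and 0.603). These are correlations across genes, which are not independent replicates. The main fits, with every estimate, SE and p-value given from them, did not use these pairs. The replicate block was run as an alternative only. Bounds from 0 counts cover counting error only, since reads are not independent molecules.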

Additional observations from a re-analysis of the deposited data

How the results depend on the processing

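The calls of the 10 factors were the same under all alternatives but for these. DESeq2 called 1 member for IMQ in KO ganglia, Pou4f1 (-0.36, adjusted p = 0.0447), and with libraries left out its difference ran from -0.41 to -0.29. With the pan-neuronal offset the difference of cultures over ganglia reversed in WT for Runx1 (0.036), Runx3 (0.32) and Maf (0.60), and in KO for Runx1 (0.39), Runx3 (0.27) and Maf (0.31). Runx3 in WT lost its call without any 1 of 4 libraries, named above, with a range of -1.09 to -0.61. The replicate block changed no member's call. Counts over all genes moved more. For IMQ in WT they were 224, with 369 by DESeq2 and 82 to 160 with a library left out. For IMQ in KO they were 190, with 296 by DESeq2, 58 with the compared groups alone and 56 to 165 with a library left out. The difference of IMQ effects gave 0, with 2 without the low-count filter, 5 by DESeq2 and 0 to 1 with a library left out. KO against WT gave 2 in vehicle ganglia, with 22 without the filter, 31 by DESeq2, 1 with the groups alone, 3 with the replicate block and 0 to 2 with a library left out. It gave 1 in IMQ ganglia, with 2 without the filter, 2 by DESeq2, 5 with the groups alone and 0 to 1 with a library left out. For rPOSTN in WT cultures 0 genes became 2 without the filter and 8 with the replicate block. Whether the numbers pair the IMQ and vehicle libraries could not be judged with 2 pairs each (r of 0.241 and 0.206 in WT, 0.749 and 0.751 in KO). In a group of 2 libraries the residuals are mirror images, so the 2 values are not separate evidence. There the block gave 280 and 239 genes. The numbers did not pair the cultures and ganglia (-0.0527 to 0.178). Runx3 had 33 to 130 counts per library. The causes of these changes were not tested.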
